A study of Homo sapiens with 6 samples.

Results

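The genes described here encode the proteins of the mitochondrial ribosome and the factors that drive mitochondrial translation, measured in U87 cells, an established human glioblastoma line. They were taken from the count tables by symbol, pseudogenes left out: the numbered MRPL and MRPS symbols, DAP3, and 11 translation factors (TUFM, TSFM, GFM1, GFM2, MTIF2, MTIF3, MTRF1, MTRF1L, MRRF, MTFMT and TACO1). The rule found 90 genes among the 54628 rows of each table, of which 51 belong to the large ribosomal subunit, 28 to the small subunit and 11 are factors. MRPS18A and MRPS30 were placed with the large subunit, where their proteins sit in the human mitoribosome despite their names. The series title speaks of mitochondria that pass from astrocytes to glioblastoma cells and of the activation of quiescent tumor cells. The cells were grown in co-culture and sorted by flow cytometry, and the labels give 3 libraries of cycling cells that received mitochondria (received) and 3 libraries of cycling cells that did not (not received). Both groups thus share the line, the co-culture, the sort and the cycling state, and no quiescent cells, monocultured cells or unsorted cells enter the comparison. The gates for receipt and cycling, and whether the 3 libraries of a group come from separate cultures, were not given in the sources used here. The p-values therefore rest on the spread among these libraries, which may be technical. In bulk RNA of sorted cells, a lower level in a library cannot be told apart from fewer cells that express the gene.

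Mitochondria keep a small genome that encodes a few membrane subunits of the respiratory chain and of ATP synthase, and they translate those mRNAs on ribosomes of their own. The RNA of these ribosomes is made from mitochondrial DNA, while all of their proteins are encoded in the nucleus, made in the cytosol and imported. Some of the proteins have bacterial counterparts and carry the bacterial number, and others, mostly with higher numbers, were acquired later or are restricted to mitochondria. Translation starts with the factors MTIF2 and MTIF3 and a formylated methionine supplied by MTFMT, elongates with TUFM, TSFM and GFM1, ends with MTRF1L or MTRF1, and the subunits are then released by MRRF and GFM2. Without this machinery the core of the respiratory chain cannot be built.

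Totals ran from 17879552 to 21314558 counts in the received libraries and from 18549585 to 46392491 counts in the not received libraries, and the 90 genes took 0.542% to 0.558% of the counts in received and 0.456% to 0.507% in not received libraries. Levels are given as CPM, the usual scaling of counts to library size, here after TMM scaling, and 3 counts stand at 0.0661 to 0.167 CPM. Not received replicate 2, the deepest library, stood apart: chi-square per gene was 22.1 and 20.2 against the other libraries of its group, 5.80 between those other libraries, and 3.39 to 3.89 between received libraries. It was the lowest library for 56 of the 88 tested members, and results are therefore also given without it. All 8 markers listed for the glioblastoma line were tested. Of the astrocyte markers AQP4, ALDH1L1 and GJB6 had 0 counts in all 6 libraries, AGT and S100B 0 to 3, SLC1A2 3 to 26 and GFAP 4 to 13 counts. SLC1A3 was the exception, with 259 to 826 counts or 14.4 to 18.5 CPM, and it was not called (adjusted p = 0.161, edgeR). The 8 astrocyte markers summed to 15.1 to 16.9 CPM in received and 16.9 to 19.1 CPM in not received libraries. Among the 6 leukocyte and microglia markers, AIF1, TYROBP, CX3CR1 and P2RY12 had 0 counts throughout and PTPRC 0 to 2 counts, while CD68 was called higher (481 ± 8.48 CPM in received, 374 ± 21.9 CPM in not received libraries, n = 3 each, SD); a part of such cells in the results below was not tested. The endothelial markers CDH5 and CLDN5 had 0 to 10 counts, VWF 7 to 26 and PECAM1 14 to 58 counts. These 4 endothelial markers summed to 1.501 to 2.09 CPM in received and 1.68 to 2.07 CPM in not received libraries.

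Some transcripts of the mitochondrial translation machinery were modestly higher in cells that had received mitochondria, most did not pass the test, and none was called lower with all 6 libraries in the fit. Of the 88 members with enough counts to test, 21 rose (23.9%), against 9.21% of the 14100 genes tested and 18.9% called in either direction. Not 1 of the 88 fell, against 9.67% of all tested genes, by edgeR's quasi-likelihood test at a Benjamini-Hochberg adjusted p under 0.05. At an unadjusted p under 0.05 the counts were 35 higher (39.8%) and 0 lower, against 16.6% and 16.7% of all tested genes. DESeq2 called 21 of 87 members higher, against 8.71% of its tested genes, and 0 lower, against 10.8%. The changes were small: the called members lay between 1.15-fold and 1.55-fold higher, 2 of them at 1.5-fold or more, with a median log2 fold change of 0.31. Over all 88 members the median log2 fold change was 0.13, beside -0.0012 over all genes, and 71 members had a positive and 17 a negative value. In 36 members (40.9%) every received library lay above every not received library, which was so for 19.5% of all genes, and the reverse was seen in 1 member, MTRF1L, against 19.5% of all genes. The counts depended on which group lost a library, and the reason was not tested. With any received library left out, 8 to 11 members were called higher, against 4.15% to 4.52% of all genes in those fits. With any not received library left out, 21 to 23 members were called higher, against 7.29% to 9.48% of all genes. Without not received replicate 2 the counts were 21 higher and 2 lower, against 9.48% and 11% of all genes.

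**Figure D1:**
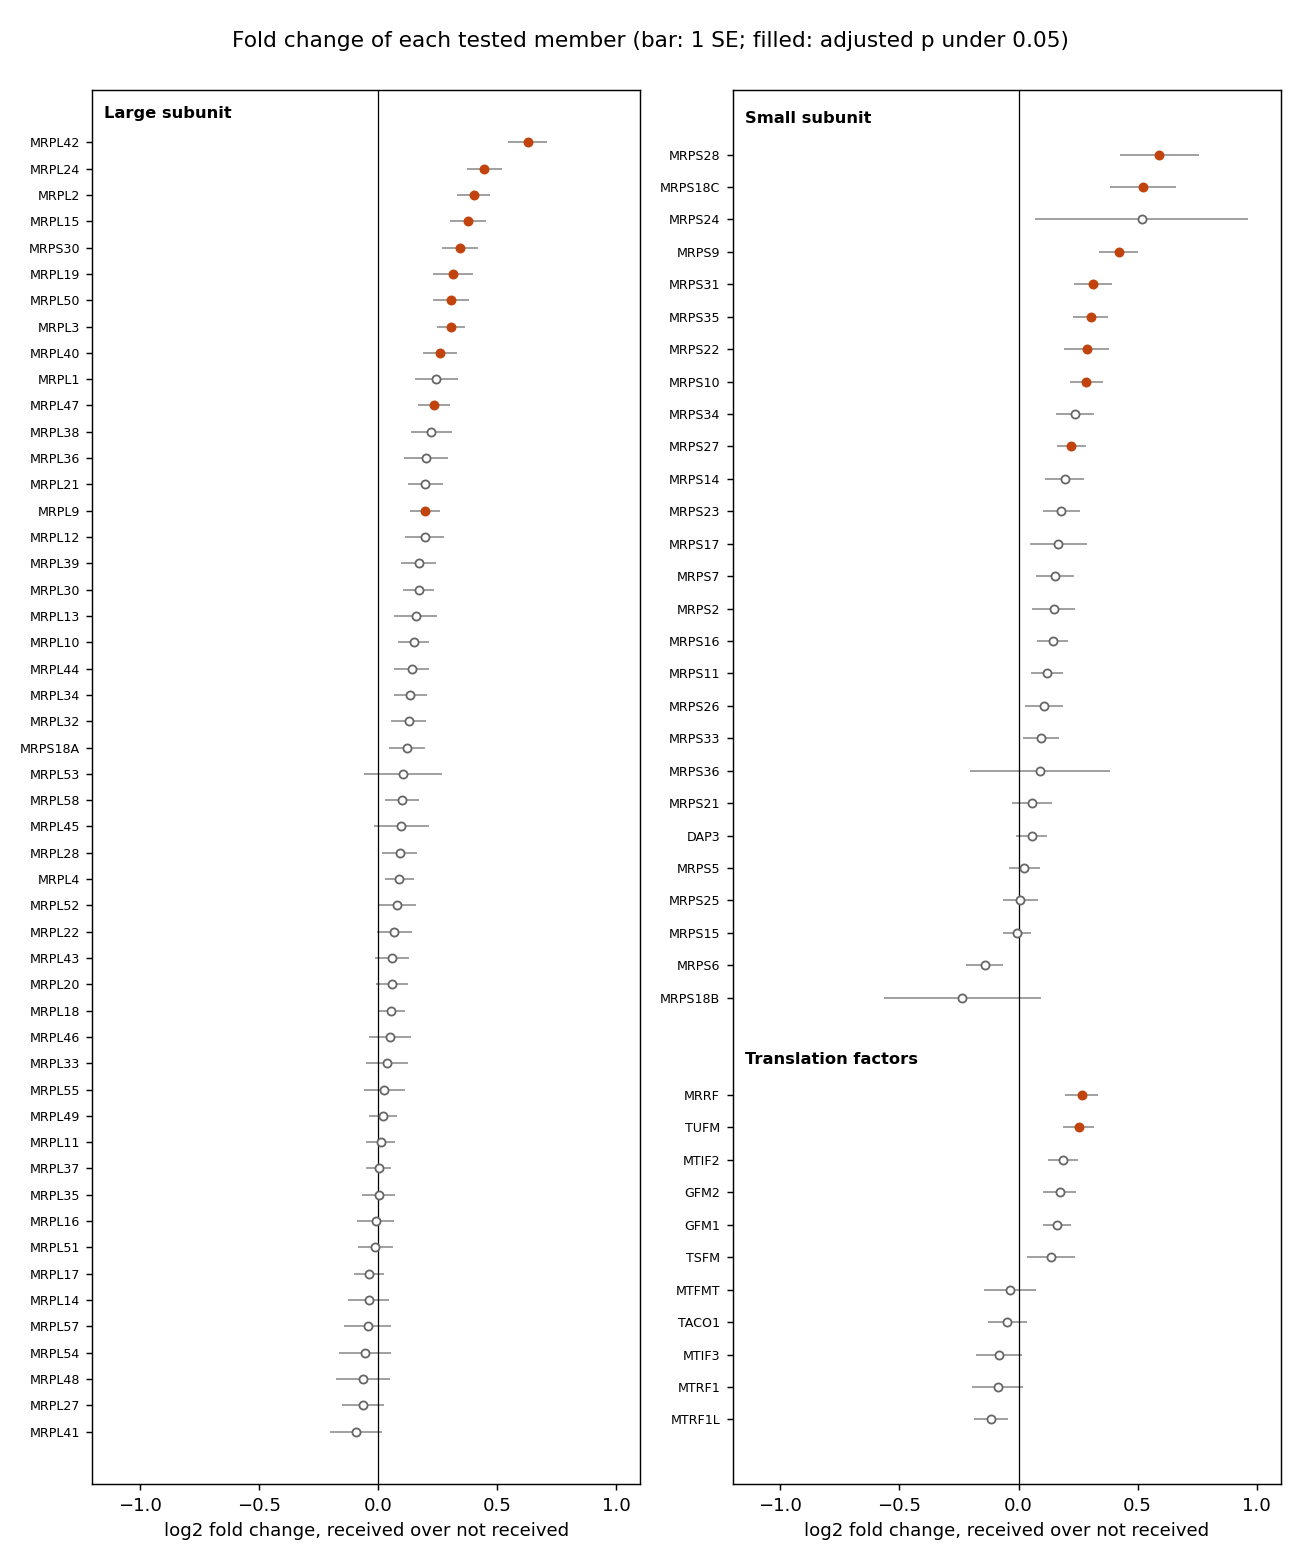
Log2 fold change of each of the 88 tested members, received over not received, with bars of 1 SE and filled points for the 21 members called at an edgeR adjusted p under 0.05. Left, the large subunit; right, the small subunit above the translation factors. All filled points lie to the right of 0, from MRPL42 (0.63) at the top of the large subunit to MRPL9 (0.20).

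In the large subunit the transcripts of 11 of 50 tested genes rose (22%), 0 fell and the median log2 fold change was 0.10. The count was 6 (12%) without received replicate 1 or 3. Of the 11, 6 carry a bacterial number in the MRPL series (MRPL2, MRPL3, MRPL9, MRPL15, MRPL19 and MRPL24), while MRPL40, MRPL42, MRPL47, MRPL50 and MRPS30 carry higher numbers. The largest change of the machinery was that of MRPL42, a component of the large subunit with a high number in the series. It stood at 47.4, 46.5 and 44.7 CPM in the received libraries and at 31.8, 26.9 and 31.4 CPM in the not received libraries. The groups did not overlap, and not received replicate 2 was the lowest library. The log2 fold change was 0.63 ± 0.08 (SE; adjusted p = 1.74e-04, edgeR), a 1.55-fold difference, and it was 0.55 without not received replicate 2. An annotated 7SL pseudogene, RN7SL737P, shares 282 exon bases with MRPL42 on the same strand, and the assignment of such reads was not given in the sources used here.

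MRPL24, a counterpart of the bacterial protein L24 that takes part in the assembly of the large subunit, had 95.9, 92.6 and 103 CPM in received and 69.1, 66.8 and 78.5 CPM in not received libraries. Its log2 fold change was 0.45 ± 0.07 (adjusted p = 0.00112, edgeR). Received replicate 3 was the highest and not received replicate 2 the lowest, with a clear gap between the groups. MRPL2, whose bacterial counterpart lies close to the peptidyl transferase centre, stood at 50.7, 49.99 and 51.4 CPM in received and 40.0, 37.9 and 37.5 CPM in not received libraries. Its received libraries were nearly level and all above the not received ones, and the log2 fold change was 0.40 ± 0.07 (adjusted p = 0.00141, edgeR). MRPL2 shares 92 exon bases with KLC4 on the opposite strand, and the use of strand in counting was not given in the sources used here.

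MRPL3, another protein of the peptidyl transferase region, had 181, 179 and 184 CPM in received and 148, 138 and 155 CPM in not received libraries. The received libraries all lay above the not received ones, and the log2 fold change was 0.31 ± 0.06 (adjusted p = 0.00324, edgeR). MRPL15 had 74.7, 81.0 and 79.4 CPM in received and 65.0, 54.7 and 61.8 CPM in not received libraries. Its groups did not overlap, with not received replicate 2 the lowest, and the log2 fold change was 0.38 ± 0.07 (adjusted p = 0.00356, edgeR). MRPS30, a mitochondria-specific protein named after the small subunit and placed in the large one, had 31.6, 34.3 and 35.0 CPM in received and 26.8, 26.2 and 26.5 CPM in not received libraries. The not received libraries were nearly level, and the log2 fold change was 0.34 ± 0.07 (adjusted p = 0.00651, edgeR). These 5 genes and MRPL42, with MRPS9 of the small subunit, kept their call in all 14 alternative fits, the 6 that leave out a library included.

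The calls of the other large subunit genes were less stable. MRPL50, a mitochondria-specific protein, had 28.7, 27.4 and 29.1 CPM in received and 22.5, 22.4 and 24.0 CPM in not received libraries, with a log2 fold change of 0.31 ± 0.08 (adjusted p = 0.0124, edgeR). Its call was lost without received replicate 1 or 3 and after a correction for GC content and length (adjusted p up to 0.15, edgeR). MRPL19, whose bacterial counterpart lies at the interface of the subunits, had 63.1, 65.3 and 64.0 CPM in received and 54.3, 44.9 and 56.4 CPM in not received libraries, with a log2 fold change of 0.31 ± 0.08 (adjusted p = 0.0196, edgeR). Its value in not received replicate 2 lay well below the rest, and the fold change was 0.21 without that library. The call of MRPL19 was lost without any received library, and MRPL19 shares 82 exon bases with GCFC2 on the opposite strand. MRPL40, MRPL47 and MRPL9, which fall outside the 8 largest changes of the subunit, had log2 fold changes of 0.26, 0.24 and 0.20 with edgeR adjusted p between 0.0213 and 0.0434. MRPL40 kept its call in 12 of the 14 alternative fits, MRPL47 in 9 and MRPL9 in 7.

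**Figure D2:**
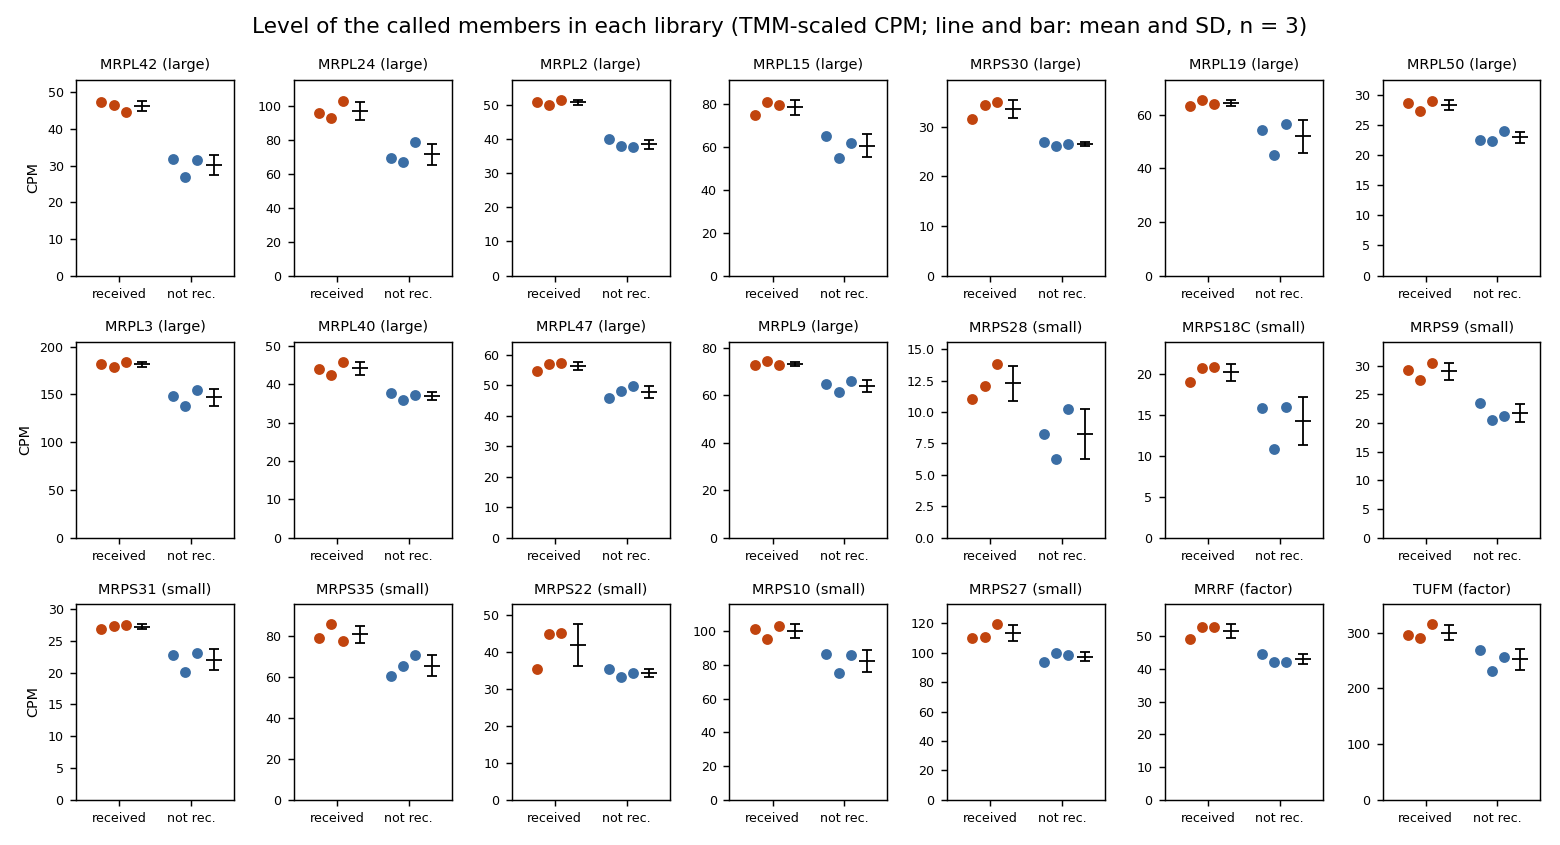
TMM-scaled CPM of the 21 called members in each of the 3 received (red, left) and 3 not received (blue, right) libraries, with the mean and SD drawn beside the points; each axis starts at 0. In 20 of the 21 the groups do not overlap, the exception being MRPS22, where received replicate 1 (35.5 CPM) lies level with the highest not received library.

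Most of the large subunit did not pass the test. MRPL12, the stalk protein that recruits translation factors, had 137, 121 and 132 CPM in received and 128, 101 and 112 CPM in not received libraries, with overlapping groups and a log2 fold change of 0.20 ± 0.08 (adjusted p = 0.115, edgeR); it shares 205 exon bases with another annotated gene on its strand. MRPS18A, a paralog of the small subunit protein MRPS18C that sits in the large subunit, had a log2 fold change of 0.12 ± 0.07 (adjusted p = 0.277, edgeR). MRPL35 was the flattest by its p: 59.5, 61.7 and 60.8 CPM in received and 63.2, 56.7 and 62.3 CPM in not received libraries, with a log2 fold change of 0.0014 ± 0.07 (adjusted p = 0.991, edgeR). Of the large subunit, 41 genes had positive and 9 negative fold changes. The lowest was that of MRPL41, named after its values were seen, at -0.09 ± 0.11 (adjusted p = 0.587, edgeR). Without not received replicate 2, however, MRPL41 was called lower, with a log2 fold change of -0.22 (adjusted p = 0.0248, edgeR). MRPL23 was not tested, with 9, 6 and 4 counts in received and 10, 7 and 4 counts in not received libraries.

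The 150 bases before the annotated start of MRPL42, MRPL24 and MRPL50 follow, since they were called and carry the same long motif, and those of MRPL54, whose log2 fold change was -0.06 (adjusted p = 0.754, edgeR), are set beside them because it carries the motif too. The sequences are from RefSeq on build GRCh38.p14, written 5′ to 3′ on the strand of the gene, at chr12:93467364-93467513 (plus) for MRPL42, chr1:156741089-156741238 (minus) for MRPL24, chr9:101398619-101398768 (minus) for MRPL50 and chr19:3762532-3762681 (plus) for MRPL54. Capitals mark matches to CTACA, 2 bases of any kind and TCCCA, which is the core of the element bound by the zinc finger factor ZNF143.
MRPL42: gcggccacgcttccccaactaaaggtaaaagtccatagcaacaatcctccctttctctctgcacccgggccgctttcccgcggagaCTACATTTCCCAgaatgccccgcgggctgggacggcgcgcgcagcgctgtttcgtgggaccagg
MRPL24: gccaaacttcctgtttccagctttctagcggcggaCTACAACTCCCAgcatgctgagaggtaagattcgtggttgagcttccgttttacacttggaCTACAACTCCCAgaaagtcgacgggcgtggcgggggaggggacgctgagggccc
MRPL50: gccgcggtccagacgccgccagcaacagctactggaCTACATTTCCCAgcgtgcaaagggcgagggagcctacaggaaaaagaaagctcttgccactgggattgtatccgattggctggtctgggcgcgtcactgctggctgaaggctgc
MRPL54: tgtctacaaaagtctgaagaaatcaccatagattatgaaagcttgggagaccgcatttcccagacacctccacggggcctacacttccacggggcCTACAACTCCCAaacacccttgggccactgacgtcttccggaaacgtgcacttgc
MRPL24 holds the motif at 2 places within these bases, and the other 3 genes at 1 each. The motif was searched after these sequences had been seen.

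In the small subunit the transcripts of 8 of 27 tested genes rose (29.6%), 0 fell and the median log2 fold change was 0.15. The count was 3 (11.1%) without received replicate 1 and 2 (7.41%) without received replicate 2 or 3. The 8 were MRPS9, MRPS10 and MRPS18C, with bacterial numbers, and MRPS22, MRPS27, MRPS28, MRPS31 and MRPS35, with higher ones. MRPS9, whose bacterial counterpart reaches toward the transfer RNA in the peptidyl site, had 29.3, 27.5 and 30.5 CPM in received and 23.6, 20.6 and 21.2 CPM in not received libraries. The groups were apart by more than the range within either, and the log2 fold change was 0.42 ± 0.08 (adjusted p = 0.00338, edgeR). MRPS9 was the member of the small subunit whose call held in all 14 alternative fits. MRPS35 had 79.5, 85.9 and 77.7 CPM in received and 60.5, 65.5 and 70.9 CPM in not received libraries, a log2 fold change of 0.30 ± 0.07 (adjusted p = 0.0111, edgeR). Its lowest value was in not received replicate 1, not replicate 2, and its call was lost in 1 of the 14 alternatives, without received replicate 2 (adjusted p = 0.0739, edgeR).

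The largest fold changes of the small subunit were those of MRPS28, with 152 to 286 counts in a library, and MRPS18C, with 292 to 492 counts. MRPS28, which has a bacterial counterpart in protein S1, had 11.0, 12.1 and 13.8 CPM in received and 8.26, 6.30 and 10.2 CPM in not received libraries. The spread within each group was wide, and the log2 fold change of 0.59 ± 0.16 (adjusted p = 0.0267, edgeR) was 0.40 without not received replicate 2. MRPS18C, the paralog that takes the place of bacterial S18, had 19.0, 20.7 and 20.8 CPM in received and 15.9, 10.8 and 16.0 CPM in not received libraries. Its log2 fold change was 0.52 ± 0.14 (adjusted p = 0.0230, edgeR), and 0.34 without not received replicate 2, which lay far below the other libraries. Calls of both genes were lost without any received library, and MRPS28 also without not received replicate 1 (adjusted p up to 0.123, edgeR). MRPS18C shares 1178 exon bases with ABRAXAS1 on the opposite strand and MRPS28 shares 289 with another annotated gene on its own strand, and their levels are uncertain for that reason.

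MRPS10, a counterpart of bacterial S10, had 101, 95.6 and 103 CPM in received and 86.2, 74.9 and 86.1 CPM in not received libraries, with a log2 fold change of 0.28 ± 0.07 (adjusted p = 0.0122, edgeR). The mitochondria-specific MRPS31 had 26.8, 27.3 and 27.6 CPM in received and 22.8, 20.2 and 23.1 CPM in not received libraries, with a log2 fold change of 0.31 ± 0.08 (adjusted p = 0.0170, edgeR). In both, not received replicate 2 was the lowest library and the groups did not overlap. The call of MRPS10 was lost without received replicate 1 or 3, and that of MRPS31 without any received library and after the GC and length correction (adjusted p up to 0.0687, edgeR). MRPS27, a pentatricopeptide repeat protein of the small subunit, had 110, 111 and 120 CPM in received and 93.8, 99.6 and 98.6 CPM in not received libraries, with a log2 fold change of 0.22 ± 0.06 (adjusted p = 0.0215, edgeR). Leaving out not received replicate 1 or any received library ended its call (adjusted p up to 0.111, edgeR). MRPS22, mutated in inherited mitochondrial disease, was the weakest of the 21 calls, with 35.5, 45.0 and 45.4 CPM in received and 35.5, 33.3 and 34.4 CPM in not received libraries. Received replicate 1 lay among the not received libraries, and the log2 fold change was 0.29 ± 0.09 (adjusted p = 0.0467, edgeR). Its call was kept in 7 of the 14 alternative fits, with an edgeR adjusted p of up to 0.193. Just outside the threshold lay MRPS34, named after its values were seen, with a log2 fold change of 0.24 ± 0.08 (adjusted p = 0.0532, edgeR).

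The rest of the small subunit did not pass the test. DAP3, a GTP-binding protein first described for its part in cell death, had 101, 106 and 112 CPM in received and 97.0, 103 and 107 CPM in not received libraries, with a log2 fold change of 0.05 ± 0.06 (adjusted p = 0.585, edgeR). MRPS15 had the largest p, with 101, 96.9 and 101 CPM in received and 103, 95.9 and 101 CPM in not received libraries and a log2 fold change of -0.0062 ± 0.06 (adjusted p = 0.953, edgeR). In both genes the groups overlapped. MRPS36, named after its values were seen, had the largest SE, 0.29 on the log2 scale, among members with an average log2 CPM over 1, with 16.3, 15.4 and 15.2 CPM in received and 17.3, 8.99 and 18.8 CPM in not received libraries; its protein is known today mainly as KGD4, an adaptor of the 2-oxoglutarate dehydrogenase complex. MRPS6, also named after its values were seen, had a log2 fold change of -0.14 ± 0.08 (adjusted p = 0.218, edgeR) and was called lower without not received replicate 2, at -0.23 (adjusted p = 0.00800, edgeR). MRPS6 shares 176 exon bases with SLC5A3, a transporter gene on the same strand.

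Some small subunit genes had few or no counts in any library, and no level is read from them. MRPS12, the counterpart of the S12 protein of the decoding site, had 0 counts in all 6 libraries, and so had SARS2, which overlaps it by 349 exon bases on the opposite strand. MRPS24 had 10, 14 and 12 counts in received and 14, 15 and 6 counts in not received libraries, and it shares 425 exon bases with the readthrough gene URGCP-MRPS24 on its own strand. MRPS18B, the third of the MRPS18 paralogs, had 15, 16 and 18 counts in received and 25, 40 and 17 counts in not received libraries, with a log2 fold change of -0.24 ± 0.33 (adjusted p = 0.654, edgeR). The authors' handling of reads that match more than 1 gene was not given in the sources used here.

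The upstream 150 bases of the small subunit genes MRPS22 and MRPS9, both called, and of MRPS25 and MRPS26, neither called (log2 fold changes of 0.0082 and 0.11, adjusted p = 0.950 and 0.379, edgeR), are shown for the same comparison. They lie at chr3:139343844-139343993 (plus) for MRPS22, chr2:105037919-105038068 (plus) for MRPS9, chr3:15065316-15065465 (minus) for MRPS25 and chr20:3045902-3046051 (plus) for MRPS26, again RefSeq on GRCh38.p14 and 5′ to 3′ on the strand of the gene. Capitals mark this ZNF143 motif in MRPS22, MRPS25 and MRPS26, in MRPS22 also an ETS motif (CCGGAAGT, here on the opposite strand), and in MRPS9 a match, on the opposite strand, to the motif of NRF1 (GCGCA, any base, GCGC), a regulator of many nuclear genes for mitochondrial proteins.
MRPS22: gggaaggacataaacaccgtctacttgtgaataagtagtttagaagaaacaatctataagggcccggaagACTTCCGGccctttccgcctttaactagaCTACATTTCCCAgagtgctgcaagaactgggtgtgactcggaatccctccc
MRPS9: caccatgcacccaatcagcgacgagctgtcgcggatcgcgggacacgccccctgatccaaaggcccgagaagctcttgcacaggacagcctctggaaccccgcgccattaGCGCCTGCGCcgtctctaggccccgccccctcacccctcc
MRPS25: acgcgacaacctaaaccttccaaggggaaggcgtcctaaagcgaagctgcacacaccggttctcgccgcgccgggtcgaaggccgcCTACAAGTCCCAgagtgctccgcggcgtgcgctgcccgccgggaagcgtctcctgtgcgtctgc
MRPS26: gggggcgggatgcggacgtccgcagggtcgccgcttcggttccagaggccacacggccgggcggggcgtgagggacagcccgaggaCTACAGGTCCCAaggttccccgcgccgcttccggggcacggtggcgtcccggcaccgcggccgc

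**Figure D3:**
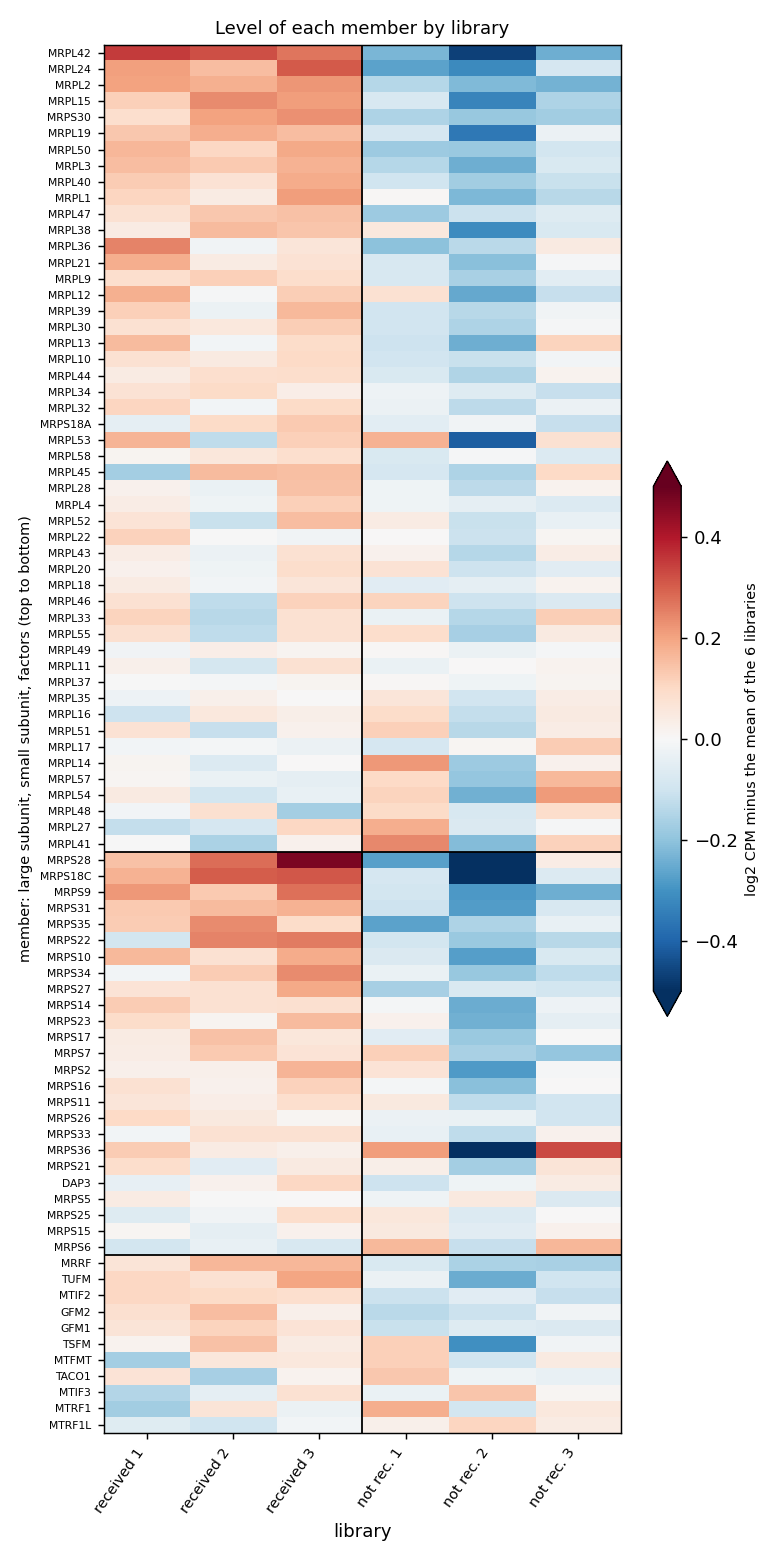
Level of the 86 tested members whose log2 CPM averaged 1 or more, in each library, as log2 CPM minus the mean of the 6 libraries; rows run through the large subunit, the small subunit and the factors, each ordered by fold change, and colours end at 0.5 in either direction. The top rows of the large and small subunit are red in all received and blue in nearly all not received libraries, and the column of not received replicate 2, the lowest library for 56 of the 88 tested members, is the bluest.

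The translation factors were split, with 2 of 11 called higher (18.2%), 0 lower and a median log2 fold change of 0.14. TUFM, the elongation factor that brings aminoacyl transfer RNA to the ribosome, had 295, 290.0 and 315 CPM in received and 269, 231 and 256 CPM in not received libraries. Its groups did not overlap, with not received replicate 2 lowest, and the log2 fold change was 0.25 ± 0.07 (adjusted p = 0.0165, edgeR). MRRF, the ribosome recycling factor, had 49.3, 52.9 and 53.0 CPM in received and 44.7, 42.3 and 42.2 CPM in not received libraries, again without overlap, and a log2 fold change of 0.27 ± 0.07 (adjusted p = 0.0176, edgeR). The call of TUFM was lost without received replicate 1 or 3, and that of MRRF without received replicate 2 or 3 (adjusted p up to 0.0948, edgeR). MRRF shares 125 exon bases with RBM18 on the opposite strand.

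The other initiation, elongation and recycling factors lay close to the threshold or overlapped. The initiation factor MTIF2 had 64.4, 64.0 and 63.6 CPM in received and 55.7, 57.7 and 55.4 CPM in not received libraries, with a log2 fold change of 0.19 ± 0.06 (adjusted p = 0.0538, edgeR). GFM1, the translocation factor, had 85.6, 88.5 and 85.7 CPM in received and 75.8, 78.3 and 77.9 CPM in not received libraries, with a log2 fold change of 0.16 ± 0.06 (adjusted p = 0.0692, edgeR). In these factors the groups were apart by more than the range within each, and without not received replicate 2 both were called higher, with edgeR adjusted p of 0.0258 for MTIF2 and 0.0446 for GFM1. GFM2, which acts with MRRF in recycling, had 56.8, 59.8 and 54.7 CPM in received and 49.0, 49.9 and 53.1 CPM in not received libraries, with a log2 fold change of 0.17 ± 0.07 (adjusted p = 0.0977, edgeR). TSFM, the exchange factor of TUFM, had 42.6, 46.6 and 43.2 CPM in received and 45.6, 34.0 and 41.6 CPM in not received libraries; the groups overlapped and the log2 fold change was 0.14 ± 0.10 (adjusted p = 0.361, edgeR).

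Both termination factors, MTIF3, the formyltransferase and the translational activator had negative log2 fold changes, and none passed the test. MTRF1L, the release factor for the standard stop codons, had 35.0, 34.1 and 36.1 CPM in received and 37.1, 39.2 and 37.5 CPM in not received libraries, with a log2 fold change of -0.12 ± 0.07 (adjusted p = 0.274, edgeR). It was the single member whose received libraries all lay below the not received ones, by a small margin. MTRF1, its paralog for unusual stop codons, had a log2 fold change of -0.09 ± 0.11 (adjusted p = 0.599, edgeR), and MTIF3, the other initiation factor, of -0.08 ± 0.10 (adjusted p = 0.587, edgeR). TACO1, which helps translate the mRNA of cytochrome oxidase subunit COX1, had a log2 fold change of -0.05 ± 0.08 (adjusted p = 0.729, edgeR), and MTFMT of -0.04 ± 0.11 (adjusted p = 0.841, edgeR). In these 4 factors the groups overlapped. Without not received replicate 2 the median log2 fold change of the 11 factors was 0.02.

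The upstream 150 bases of TUFM, at chr16:28846349-28846498 (minus) on GRCh38.p14 from RefSeq and 5′ to 3′ on the strand of the gene, end in an ETS motif, in capitals.
TUFM: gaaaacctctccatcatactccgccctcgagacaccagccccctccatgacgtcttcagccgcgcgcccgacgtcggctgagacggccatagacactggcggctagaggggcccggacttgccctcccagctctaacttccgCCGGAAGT
Promoter windows of 300 bases, 250 before the start and 50 after it, were matched for 80 of the 90 members; MRPL2, MRPL10, MRPL13, MRPL15, MRPL21, MRPL23, MRPL35, MRPS28, MRPS36 and MTFMT had none in the table. Both strands were searched, and matches of different motifs were counted separately even where they overlap. The YY1 motif AANATGGC was in 25 of the 80 (31.2%), against 6.58% of all 35116 promoters in the table, and the ETS motif in 15 (18.8%), against 4.14%. The NRF1 motif was in 8 (10%), against 5.78%, and the ZNF143 motif in 8 (10%), against 1.46%. Among the 10538 promoters of tested genes the shares were higher, at 10.2% for YY1, 8.76% for ETS, 11.7% for NRF1 and 3% for ZNF143, so that the members' share for NRF1 lay below that of tested genes. Of the 18 called members with a window the YY1 motif was in 8, the ETS motif in 4 and the NRF1 motif in 1. Of the 62 other members they were in 17, 11 and 7. The ZNF143 motif, searched after sequences had been seen, was in 5 of the 18 and in 3 of the 62. Those 5 are MRPL19, MRPL24, MRPL42, MRPL50 and MRPS22, and the differences between called and other members were not tested. Of 308 tested genes outside the members that hold the ZNF143 motif 9.09% were called higher. The share was 9.5% of all tested genes outside the members with a promoter in the table. MRPL46 and MRPS11 face away from each other with windows that share 181 bases on chromosome 15, and neither was called, with log2 fold changes of 0.05 ± 0.09 and 0.12 ± 0.07 (adjusted p = 0.736 and 0.231, edgeR).

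Large and small subunit had shares of 22% and 29.6% called higher. The order turned without received replicate 1 (12% and 11.1%), replicate 2 (16% and 7.41%) or replicate 3 (12% and 7.41%). It also turned without not received replicate 3 (28% and 25.9%) and, barely, with the GC and length correction (26% and 25.9%). The medians of 0.10 and 0.15 lay within each other's interquartile range of log2 fold changes, 0.02 to 0.20 in the large and 0.07 to 0.28 in the small subunit. The difference between the subunits was not tested. Summed over its 51 genes the large subunit stood at 3277, 3167 and 3332 CPM in received and 3094, 2816 and 3091 CPM in not received libraries. Means were 3259 ± 83.9 CPM in received and 3000.1 ± 160 CPM in not received libraries (n = 3 each, SD), a difference of 8.62%, or 5.39% without not received replicate 2. The small subunit summed to 1413, 1425 and 1478 CPM in received and 1348, 1225 and 1338 CPM in not received libraries. Its means were 1439 ± 34.9 CPM in received and 1304 ± 68.1 CPM in not received libraries (n = 3 each, SD), a difference of 10.4%, or 7.14% without that library. In both sums the groups did not overlap.

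The ratio of large to small subunit transcripts was 2.32, 2.22 and 2.25 in received and 2.30, 2.30 and 2.31 in not received libraries, so that the groups overlapped. It averaged 2.27 ± 0.0497 in received and 2.30 ± 0.00792 in not received libraries (n = 3 each, SD), a difference of -0.0358 that is smaller than the spread between received libraries. With MRPS18A and MRPS30 counted in the small subunit by their names, the ratio averaged 2.10 ± 0.0540 in received and 2.14 ± 0.0153 in not received libraries (n = 3 each, SD), with overlapping groups again. Counts then came to 10 of 48 large and 9 of 29 small subunit genes called higher. Factors summed to 711, 718 and 739 CPM in received and 669, 618 and 650 CPM in not received libraries, a difference of 11.9%, or 9.58% without not received replicate 2. TUFM alone made up 290.0 to 315 CPM of the received and 231 to 269 CPM of the not received sums.

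**Figure D4:**
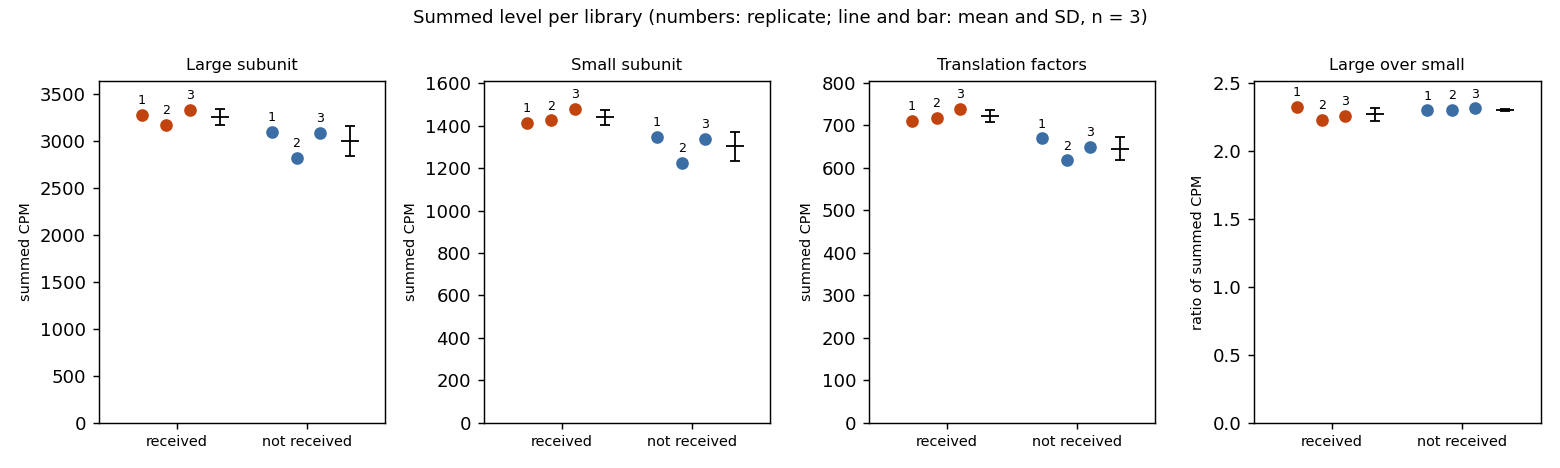
Summed TMM-scaled CPM of the 51 large subunit genes, the 28 small subunit genes and the 11 factors in each library, and the ratio of the large to the small sum; received libraries are red (left) and not received libraries blue (right), with replicate numbers over the points and the mean and SD beside them. Received libraries lie above not received libraries in all 3 sums, whereas the ratio overlaps between 2.22 and 2.32.

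Genes were also counted by whether they carry a bacterial number, and the differences between these classes were not tested. Of the members numbered after bacterial proteins 9 of 42 were called higher (21.4%, median log2 fold change 0.14), and of those with higher numbers, DAP3 included, 10 of 35 (28.6%, median 0.10). Within the small subunit, 5 of 13 genes with higher numbers were called higher (38.5%, median 0.22, all 13 fold changes positive) and 3 of 14 with bacterial numbers (21.4%, median 0.15). In the large subunit the counts were 5 of 22 (22.7%, median 0.09) and 6 of 28 (21.4%, median 0.13).

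Levels per kilobase, CPM divided by the median length of the annotated transcripts of a gene, differed widely among the tested members. Most of the ribosomal proteins, the stalk protein MRPL12 aside, are present in equal numbers in a ribosome, which does not apply to the translation factors. The median over the 88 tested members was 47.4 CPM per kb in received and 42.3 CPM per kb in not received libraries. Large subunit transcripts had a median level of 56.0 CPM per kb in received and 50.03 CPM per kb in not received libraries. Small subunit transcripts had a median of 34.9 CPM per kb in received and 31.0 CPM per kb in not received libraries, and factors of 25.1 CPM per kb in received and 22.4 CPM per kb in not received libraries. MRPL51 was the highest at 243 CPM per kb in received and 246 CPM per kb in not received libraries, and its log2 fold change was -0.01 (adjusted p = 0.928, edgeR). In the small subunit MRPS15 was the highest, at 99.1 CPM per kb in received and 99.6 CPM per kb in not received libraries. TUFM led the factors with 145 CPM per kb in received and 122 CPM per kb in not received libraries, and MTFMT came last with 4.90 CPM per kb in received and 5.04 CPM per kb in not received libraries. MRPL50 was the lowest of the large subunit, at 8.52 CPM per kb in received and 6.89 CPM per kb in not received libraries. Of these 5 genes, TUFM and MRPL50 were called higher and MRPL51, MRPS15 and MTFMT were not called.

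The rest of the mitochondrial translation pathway was counted from lists of genes outside the members. Of all tested genes 9.21% rose and 9.67% fell. Of 28 tested assembly and ribosomal RNA modification factors, 4 rose (14.3%), 0 fell and the median log2 fold change was 0.10. They were TFB1M, which methylates the small ribosomal RNA, C1QBP, GTPBP10, a GTPase of large subunit assembly, and METTL15, which falls outside the 3 largest and also methylates the small ribosomal RNA. TFB1M had 41.4, 40.9 and 42.6 CPM in received and 30.9, 29.6 and 35.1 CPM in not received libraries, without overlap, and a log2 fold change of 0.39 ± 0.08 (adjusted p = 0.00471, edgeR). C1QBP and GTPBP10 both had a log2 fold change of 0.30 (adjusted p = 0.00212 and 0.0338, edgeR), and METTL15 of 0.28 (adjusted p = 0.0220, edgeR). At an unadjusted p under 0.05, 1 of these factors was lower, and DESeq2 called 0 lower. The count of 4 was 2 without any 1 of the received libraries. GTPBP10 kept its call in 1 of the 6 fits that leave out a library and lost it after the GC and length correction (adjusted p = 0.0840, edgeR). All 4 genes of mitoribosomal proteins with other symbols (AURKAIP1, CHCHD1, GADD45GIP1 and PTCD3) stayed outside the threshold. Their median log2 fold change was -0.03, with 0 at an unadjusted p under 0.05 or in DESeq2.

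Of 18 tested mitochondrial aminoacyl-tRNA synthesis genes, 3 rose (16.7%) and 1 fell (5.56%), against 9.21% and 9.67% of all tested genes. Their median log2 fold change was 0.17. YARS2 and AARS2, the synthetases for tyrosine and alanine, had log2 fold changes of 0.28 and 0.19 (adjusted p = 0.0268 and 0.0340, edgeR). CARS2, the cysteine synthetase, had 210, 205 and 223 CPM in received and 284, 248 and 268 CPM in not received libraries and a log2 fold change of -0.32 ± 0.06 (adjusted p = 0.00328, edgeR). Its groups lay apart, in the direction opposite to the called members. Without any 1 of the received libraries 0 of these genes were called higher, and without not received replicate 1 the count was 6 and without replicate 3 it was 2. Of 14 genes for handling mitochondrial mRNA and inserting its products, 2 rose (14.3%) and 1 fell (7.14%), against the same shares of all genes. COX18, an insertase for cytochrome oxidase, rose by 0.53 ± 0.10 on the log2 scale (adjusted p = 0.00216, edgeR). FASTKD3 rose by 0.36 ± 0.12 (adjusted p = 0.0434, edgeR) and FASTKD5 fell by 0.37 ± 0.11 (adjusted p = 0.0324, edgeR). Both FASTKD proteins act on mitochondrial RNA. The count of 2 higher genes was 1 without received replicate 2 or 3 or not received replicate 1 and 4 without not received replicate 2. FASTKD5 lost its call when any library other than not received replicate 2 was left out, in DESeq2 (adjusted p = 0.0712) and with no filter (adjusted p = 0.0507, edgeR). FASTKD3 lost its call without received replicate 2 or 3 or not received replicate 1 or 3, in DESeq2 (adjusted p = 0.0583), in limma-voom (adjusted p = 0.0663) and after the GC and length correction (adjusted p = 0.134, edgeR).

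Most mRNAs that these ribosomes translate were called in the other direction. Of the 13 mRNAs of mitochondrial DNA 8 were called lower (61.5%, against 9.67% of all tested genes) and 0 were called higher. The other 5 (ATP8, COX1, ND4, ND4L and ND5) did not pass the test. The median log2 fold change of the 13 was -0.36. At an unadjusted p under 0.05, and in DESeq2, 0 were higher. CYTB, the cytochrome b of complex III, stood at 1945, 1947 and 2025 CPM in received and 2811, 3484 and 2741 CPM in not received libraries and fell by 0.61 ± 0.08 on the log2 scale (adjusted p = 4.23e-04, edgeR). ND1 and ND3, subunits of complex I, fell by 0.52 ± 0.10 and 0.53 ± 0.14 (adjusted p = 0.00900 and 0.0472, edgeR). The call of ND3 was lost when any 1 not received library was left out, without received replicate 3, with the replicate block and after the GC and length correction (adjusted p up to 0.194, edgeR). The 13 mRNAs summed to 40794, 39599 and 41941 CPM in received and 45746, 58746 and 50312 CPM in not received libraries, so that not received replicate 2 was the highest library here and the lowest for most members. The count of 8 was 5 without any 1 of the received libraries, and 12 without not received replicate 1, in DESeq2 and with no filter. The ribosomal RNAs RNR1 and RNR2 summed to 5879, 5585 and 5268 CPM in received and 4250, 4986 and 5286 CPM in not received libraries, with overlapping groups and log2 fold changes of 0.14 ± 0.07 and 0.21 ± 0.08 (adjusted p = 0.185 and 0.0829, edgeR). RNR2 was called higher in DESeq2 (adjusted p = 0.0367), and by edgeR with no filter (adjusted p = 0.0146), with library size alone (adjusted p = 0.0405) and without not received replicate 3 (adjusted p = 0.0402). Libraries were made from poly-A RNA, and the part of that capture in these levels was not tested.

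Transcripts of cytosolic ribosomal proteins were counted beside the members as the family of the other ribosome of the cell. Of 73 tested, 11 rose (15.1%, against 9.21% of all tested genes) and 0 fell, with 3 lower at an unadjusted p under 0.05 and 2 in DESeq2. The median log2 fold change was 0.10, and whether their share differs from that of the members was not tested. With the GC and length correction the order of the shares turned, at 22 of 88 members (25%) and 20 of 73 cytosolic genes (27.4%). Examples were RPL17 (0.53 ± 0.11) and RPL9 (0.27 ± 0.08), with edgeR adjusted p of 0.00424 and 0.0276. Mean levels were 21.8 CPM in received and 15.2 CPM in not received libraries for RPL17, and 782 and 649 CPM for RPL9. The call of RPL9 was lost without any received library (adjusted p up to 0.0989, edgeR). The sum over the cytosolic family was 46893 ± 2034 CPM in received and 43991 ± 3407 CPM in not received libraries (n = 3 each, SD), with overlapping groups. The count of 11 was 1, 5 and 1 without received replicates 1, 2 and 3. Reads of these genes can be shared with their many processed pseudogenes.

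**Figure D5:**
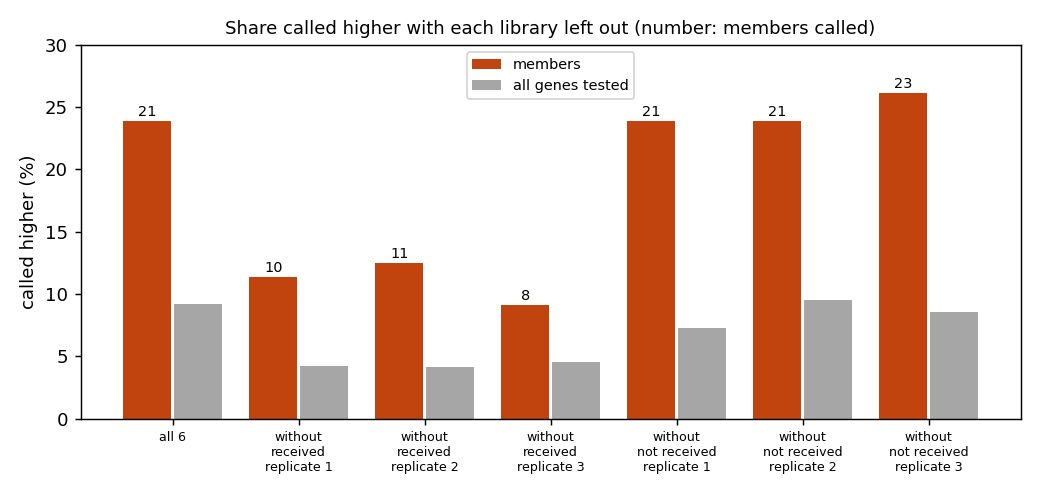
Percent of tested genes called higher at an edgeR adjusted p under 0.05 with all 6 libraries and with each left out in turn, for the 88 tested members (red, left bar, with the number called above it) and all genes tested (grey, right bar). The members' share lies above that of all genes in each fit, and both shares are lowest when a received library is left out (8 to 11 members).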

How the data were processed

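Poly-A RNA of 6 libraries was sequenced as paired-end reads, per the labels' protocols. The authors deposited 1 table per library with raw read counts for each gene symbol, not normalized. DESeq and R 3.6.1 appear in the submitters' processing notes. Aligner, counter, genome build and use of strand were not given in the sources used here.

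Groups and replicate numbers came from the titles. In R 4.3.3, edgeR 4.0.16 filtered genes (filterByExpr; 14100 of 28833 detected genes passed, with 99.81% to 99.89% of a library's counts), computed TMM factors and ran the quasi-likelihood test (robust glmQLFit, glmQLFTest) with group as the sole term. Calls are at a Benjamini-Hochberg adjusted p under 0.05 over all 14100 genes, and SEs come from the F statistic, as the size of the log2 change over the root of F. The common coefficient of variation between libraries was 9.47%. Floors of 3 counts cover counting error only. No set test was run and no p is given for a sum or ratio over the members. Alternatives were RLE factors, library size alone, DESeq2 1.42.0, limma-voom (limma 3.58.1), no filter, a filter of 1 CPM, a replicate block, each library left out in turn and, chosen after seeing the data, a correction for GC content and transcript length. The main edgeR fit, and none of the alternatives, was also tested on simulated counts that held known changes.

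The members and lists were chosen with earlier results of these data known. Named were up to 8 called members per subunit with the largest fold change at an average log2 CPM of at least 1, all factors, MRPS18A, MRPS18B, MRPS18C, MRPS30, DAP3, MRPL12, the member of each subunit with the largest p, and up to 3 called genes per list. Some genes that this rule names are not reported here. METTL15, AARS2 and the members said to lie outside that rule were chosen after their values were seen, as were MRPL40, MRPL47, MRPL9, MRPL51, MRPL54, MRPL46, MRPS11, MRPS25, MRPS26 and the untested genes. Transcript lengths, GC content and exon overlaps are from the GENCODE annotation given as reference, which need not be the one the authors used, and promoters are from RefSeq on GRCh38.p14.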

Additional observations from a re-analysis of the deposited data

How the results depend on the processing

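Of the 21 members called higher, 7 kept their call in all 14 alternative fits, and of 699 recomputed values of single named genes 612 stayed on their side of the threshold, 74 lost a call, 13 gained one and 0 reversed. Members called higher numbered 20 to 23 with RLE factors, DESeq2, limma-voom, no filter, the 1 CPM filter and the GC and length correction, 27 with library size alone (against 11.9% of all genes) and 21 with the replicate block. Factors called higher numbered 4 with library size alone. Leaving out each library in turn gave 8 to 23 members called higher, 6 to 14 of the large subunit, 2 to 7 of the small subunit and 0 to 4 factors, the low ends without received replicate 3 (small subunit also without received replicate 2, large also without received replicate 1). Such fits test fewer samples. In the same fits 0 to 2 members were called lower, 0 to 1 in the large and 0 to 1 in the small subunit, all of them without not received replicate 2. The median log2 fold change of the members ranged from 0.09 to 0.16 and that of the factors from 0.018 to 0.17, the lowest of both without not received replicate 2. The deviations of same-numbered libraries from their group means had correlations of -0.2, -0.068 and 0.0535. Differently numbered libraries had -0.188 to 0.254. With so few libraries these values cannot show whether same-numbered libraries share a culture. The block changed the call of MRPL9 among the 21. Library size alone gave 1683 genes higher and 1110 lower over all genes, against 1298 and 1364 with TMM factors. It also gave 7 assembly factors, 8 aminoacyl-tRNA genes, 5 mRNA handling genes and 19 cytosolic ribosomal protein genes called higher. The cytosolic count was 20 with the GC and length correction and 18 with no filter. The aminoacyl-tRNA count was 5 under the GC and length correction, no filter or the 1 CPM filter. The cause of these shifts was not tested. With 3 libraries a group, MRPS18B and MRPS24, at about 1 CPM or less, had SEs of 0.33 and 0.45 on the log2 scale, and no level is read from them; the cause of their low counts was not tested.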

Other observations

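The direction of the members' fold changes was described against transcript properties. Across the 88 tested members, log2 fold change had a Spearman correlation of 0.0416 with transcript length, -0.212 with GC content and -0.0297 with average log2 CPM. Across all genes with these values it was -0.0817 with length, -0.15 with GC content and -0.0542 with level; genes are not independent replicates, and all share the same 6 libraries. The called members had a median transcript length of 1369 bases and a GC content of 46.2%, and the members not called 1197 bases and 50.4%.

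Received replicate 3 was the highest library for 39 of the 88 tested members and for 16 of the 21 called ones, and not received replicate 2 was the lowest for 16 of the 21. Among the 67 members that were not called, 50 had a positive fold change and 17 a negative one. In 16 of the 67 every received library lay above every not received library, beside 19.5% of all tested genes, called or not.

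The 111 annotated pseudogene rows of the family held 90, 89 and 68 counts in received and 103, 311 and 89 counts in not received libraries, which is 0.0681% to 0.147% of the counts of the members. The highest share was in not received replicate 2. In the GENCODE annotation exons of 41 of the 90 members overlap another gene, and those of 32 overlap a protein-coding gene, in 11 cases on the same strand. Of the 21 called members 8 overlap a protein-coding gene, 1 of them, MRPS28, on the same strand. The antisense gene MRPL20-AS1 had 390, 375 and 374 counts in received and 363, 847 and 366 counts in not received libraries.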
